A study of Mus musculus with 14 samples.

Results

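A set of 9 C-type lectin receptors was followed in sorted spinal cord microglia. The members, Clec4e, Clec4d, Clec4n, Clec7a, Clec5a, Clec12a, Clec4a2, Clec4a1 and Clec4a3, were taken by gene symbol, and all 9 were among the 14329 genes with normalised counts. C-type lectin receptors are surface proteins of myeloid cells that bind sugars, glycolipids and products of dying cells. The activating ones recruit the kinase Syk, either directly or through the adapters FcRγ and DAP12, and pass the signal through Card9 to NF-κB, while the inhibitory ones recruit the phosphatases SHP-1 and SHP-2. In the nervous system Clec7a is best known as a gene of microglia around amyloid plaques.

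Bulk RNA-seq was made from CD45low CD11b+ CX3CR1+ cells, 2000 per sample. They were sorted from the dorsal spinal cord of 6-month-old mice on day 5 of serum transfer (ST). There were 4 libraries of WT K/BxN ST, 3 of WT Control ST, 4 of TASTPM K/BxN ST and 3 of TASTPM Control ST. WT mice were of the C57BL/6 strain, and TASTPM mice are heterozygous for human APP with the Swedish mutation and for mutant human presenilin 1, both driven by the neuronal Thy-1 promoter. K/BxN serum comes from mice with spontaneous arthritis and carries their autoantibodies, and control serum was pooled from mice that have the KRN receptor but no arthritis. Both sexes were used and the study's sort also gated out cells with Ly6C or CCR2. The study's methods count individual mice as replicates. The libraries held 14223015 to 20239175 reads on genes, and a count of up to 3 reads was treated as not detected.

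All 9 genes lie on mouse chromosome 6 (GRCm39, GENCODE vM39). Clec4a1, at 122896122 to 122911578, Clec4a3, at 122929380 to 122948807, Clec4a2, at 123083387 to 123120958, Clec4n, at 123206802 to 123223980, Clec4d, at 123239070 to 123252230, and Clec4e, at 123258748 to 123266829, follow each other in that order, and the gap between Clec4d and Clec4e is 6517 bases. Clec12a, at 129319654 to 129342266, and Clec7a, at 129438554 to 129449742, form a pair further along, and Clec5a, at 40551234 to 40562773, stands alone. Of the distinct 75-base stretches of a receptor's transcripts, 3.12% of Clec4a2 were also in transcripts of Clec4a4, Clec4b1 or Mafg and 0.226% of Clec4a1 in those of Mdm2, while the other 7 receptors shared none. Exons of Clec5a overlap Or9a4 and exons of Clec4a2 overlap Gm67020, and the strand used in counting is not given in the sources used here.

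The 120 bases before the start of 4 receptors are printed because Clec4e and Clec4n had reads in few libraries whereas Clec7a and Clec5a had reads in all of them. They are from GRCm39, read on the strand of the gene, and capitals mark GAGGAA, the core of the PU.1 motif, and TTGCNNAA, a C/EBP motif, on either strand.
Clec4e, minus strand, chr6:123266830-123266949: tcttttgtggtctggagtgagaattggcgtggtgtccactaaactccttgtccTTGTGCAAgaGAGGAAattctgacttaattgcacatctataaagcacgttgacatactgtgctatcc
Clec4n, plus strand, chr6:123206682-123206801: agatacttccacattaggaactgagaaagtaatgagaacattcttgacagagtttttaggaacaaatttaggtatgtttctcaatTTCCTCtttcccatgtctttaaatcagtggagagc
Clec7a, minus strand, chr6:129449743-129449862: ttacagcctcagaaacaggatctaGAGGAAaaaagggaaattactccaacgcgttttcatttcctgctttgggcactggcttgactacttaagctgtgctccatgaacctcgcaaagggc
Clec5a, minus strand, chr6:40562774-40562893: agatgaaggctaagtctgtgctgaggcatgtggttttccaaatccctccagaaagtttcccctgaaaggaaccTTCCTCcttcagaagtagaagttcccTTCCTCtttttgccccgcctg

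In the 250 bases before the canonical start, GAGGAA was found for 8 of the 9 receptors, all but Clec12a, and for 22.9% of 21770 protein-coding genes. TTGCNNAA was found for Clec4e only, against 9.34% of genes, and the interferon response element, a pair of GAAA with 2 bases between, for Clec4d only, against 3.32%. TGANTCA, the AP-1 motif, was in none of the 9 windows and in 6.17% of all. GAGGAA can share bases with the interferon response element. The canonical starts of Clec4a1, Clec4a2, Clec4a3, Clec4d, Clec7a and Clec12a lie inside the annotated gene, for Clec7a by 2 bases, so their windows can hold sequence that another transcript uses.

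Per kilobase of exon, 4 of the receptors were well expressed in the Control ST libraries and 5 were close to absent. The median over the 6 Control ST libraries was 986 normalised counts per kilobase for Clec5a, with a range of 803 to 1291, 889 for Clec4a3, with a range of 788 to 1183, 848 for Clec7a, with a range of 370.3 to 1093, and 585 for Clec4a2, with a range of 468 to 813. The ranges of neighbours in this order overlapped. Clec4a1 had a median of 10.3 per kilobase and a range of 5.74 to 14.8, and Clec12a, with a median of 0.42, did not exceed 7.40. Clec4d, Clec4e and Clec4n had a median of 0, and the highest value among them was 28.6 per kilobase, of Clec4d in 1 WT library.

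**Figure D1:**
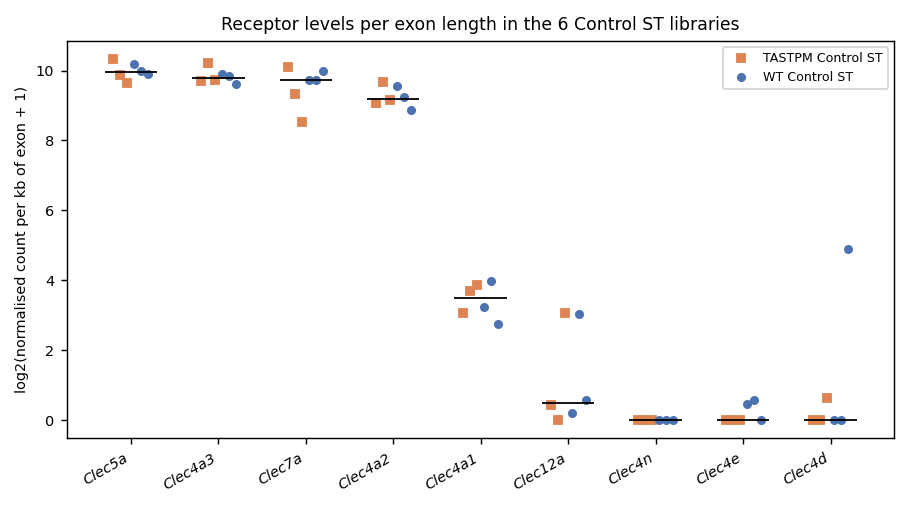
Receptor levels in the 6 Control ST libraries as log2 of normalised counts per kilobase of exon plus 1, 1 point per library, with the median as a line. Clec5a, Clec4a3, Clec7a and Clec4a2 sit well above the other 5 receptors, and their own ranges overlap.

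Of the 8 K/BxN ST libraries, 4 stood apart by Ly6c2, libraries 1 and 2 of WT and 1 and 2 of TASTPM. Ly6c2, the gene of the monocyte surface protein Ly6C, had 29133, 15646, 23510 and 12898 normalised counts in TASTPM 1 and 2 and WT 1 and 2, and at most 17.8 in the other 10 libraries. All 12 monocyte markers were higher in each of these 4 libraries than in each of the others, and their sum was 0.484% to 0.923% of reads, against 0.00155% to 0.00287% in the other K/BxN ST and 0.00167% to 0.00313% in the Control ST libraries. Ccr2, gated against in the sort, had 8537 to 27035 normalised counts there and at most 86.0 elsewhere.

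The sum of the 12 microglia markers was 1.82% to 4.31% of reads in the 4 libraries, 5.61% to 6.43% in the other K/BxN ST libraries and 5.28% to 6.94% in the Control ST libraries. P2ry12, a purinergic receptor of resting microglia, ranged from 34656 to 94752 in the 4 and from 106484 to 166138 in the 10, and Tmem119, a microglia membrane protein, from 42292 to 84054 and from 120565 to 162963, so neither overlapped. Cx3cr1, used in the sort, overlapped, with 35235 to 107725 and 97396 to 181794. Neutrophil markers were 1.25%, 1.26% and 1.40% of reads in TASTPM 1, TASTPM 2 and WT 1, but 0.0629% in WT 2, within the 0.0243% to 0.0710% of the other 10. Of the 12 neutrophil markers in the data 3, Mmp8, Camp and Lcn2, were still higher in all 4 libraries than in the other 10, and in WT 2 they had 3245, 23.0 and 103 normalised counts against at most 60.0, 9.40 and 53.5 in the 10. Ly6g, a defining neutrophil gene, was at 0 in WT 2, and Csf3r, which microglia also express, at 6811 made up most of its neutrophil sum.

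A minority of the markers of 3 other cell types also separated these libraries. Flt3 and Kmo, 2 of 6 dendritic cell markers, Cbr2, Ms4a7 and Pf4, 3 of 8 border macrophage markers, and Flt1, 1 of 4 endothelial markers, were higher in each of the 4 libraries than in each of the 10, beside 8.56% of all genes. The other members of these lists overlapped, and some lay lower, with Stab1 at 1877 to 3876 in the 4 and 3081 to 6379 in the 10 and Kdr at 37.0 to 106 and 66.5 to 248. The dendritic cell list summed to 0.00733% to 0.0168% of reads in the 4, 0.00429% to 0.00598% in the other K/BxN ST and 0.00329% to 0.00764% in the Control ST libraries. For the border macrophage list these were 0.0220% to 0.0315%, 0.0253% to 0.0392% and 0.0187% to 0.0435%, and for the endothelial list 0.00197% to 0.00398%, 0.00188% to 0.00331% and 0.00116% to 0.00253%. Separately, WT Control ST 3 had 0.242% of reads on red cell markers, against at most 0.0276% in the other 13 libraries, and its S100a8 and S100a9, at 969 and 1525 normalised counts, were the highest outside TASTPM 1 and 2 and WT 1. The part of these markers in the results was not tested.

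The 4 libraries also had 633 to 917 normalised counts of the Y-linked gene Ddx3y and at most 12.5 of Xist. In WT K/BxN ST the other 2 libraries had no Ddx3y and 5816 and 3247 of Xist, so sex and the Ly6c2 level cannot be told apart there, while TASTPM K/BxN ST 3 had 1048 of Ddx3y and 12.9 of Ly6c2. Without the 4 libraries, WT K/BxN ST holds only those 2 Xist-high libraries and is set against WT Control ST libraries with 653, 1027 and 236 of Ddx3y and 2.81, 45.3 and 1706 of Xist, so WT Control ST 3 held both genes, and sex and serum cannot be told apart in WT there. TASTPM Control ST 1, 2 and 3 had 0, 3.33 and 1481 of Ddx3y and 4321, 5048 and 202 of Xist. TASTPM K/BxN ST 1 to 4 had 917, 781, 1048 and 1.13 of Ddx3y. The genotype comparison under control serum and the serum comparison in TASTPM were thus also partly mixed with sex. Its part was not tested. The serum comparisons of the receptors are given with all 14 libraries and without the 4 libraries with high Ly6c2. In bulk samples, fewer cells of a type and less RNA per cell cannot be told apart.

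With all 14 libraries none of the 9 receptors was called between K/BxN ST and Control ST in either genotype (limma, adjusted p below 0.05 and an absolute log2 fold change above 1). Of 12645 genes tested, 1 was called in WT, which is 0.00791%, and 0 in TASTPM, which is 0.0%. At an unadjusted p below 0.05, 0 of 9 receptors were found in either genotype, beside 7.13% of all genes in WT and 4.22% in TASTPM. edgeR called 0 genes in both. At an unadjusted p below 0.05 it found 4 of 9 receptors in WT, Clec4n, Clec4e, Clec4a1 and Clec12a, beside 6.18% of all genes. In TASTPM it found the same 4 with Clec4d, beside 4.03%. All were higher after K/BxN serum. Of these only Clec4a1 passed the filter on low counts, while both shares are over genes that passed it. The counts and the shares are therefore not alike. In WT, 8 of the 9 log2 fold changes were above 0 with a median of 1.74, against a median of 0.06 over all genes tested, and in TASTPM 8 of 9 were above 0 with a median of 2.68, against 0.01. Leaving out WT K/BxN ST 1 lowered the WT median to 0.73 and leaving out WT K/BxN ST 4 raised it to 2.94, and without TASTPM K/BxN ST 1 the TASTPM median was 1.75. Over the 5 receptors that passed the filter on low counts, Clec4a1, Clec4a2, Clec4a3, Clec5a and Clec7a, the medians were 0.56 and 0.43. Without the 4 libraries 2 of these 5 were above 0 in WT, Clec5a and Clec7a, and 2 in TASTPM, Clec4a1 and Clec4a2, and the medians of the 5 were -0.025 and -0.11, beside 0.040 and -0.0055 over all genes.

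**Figure D2:**
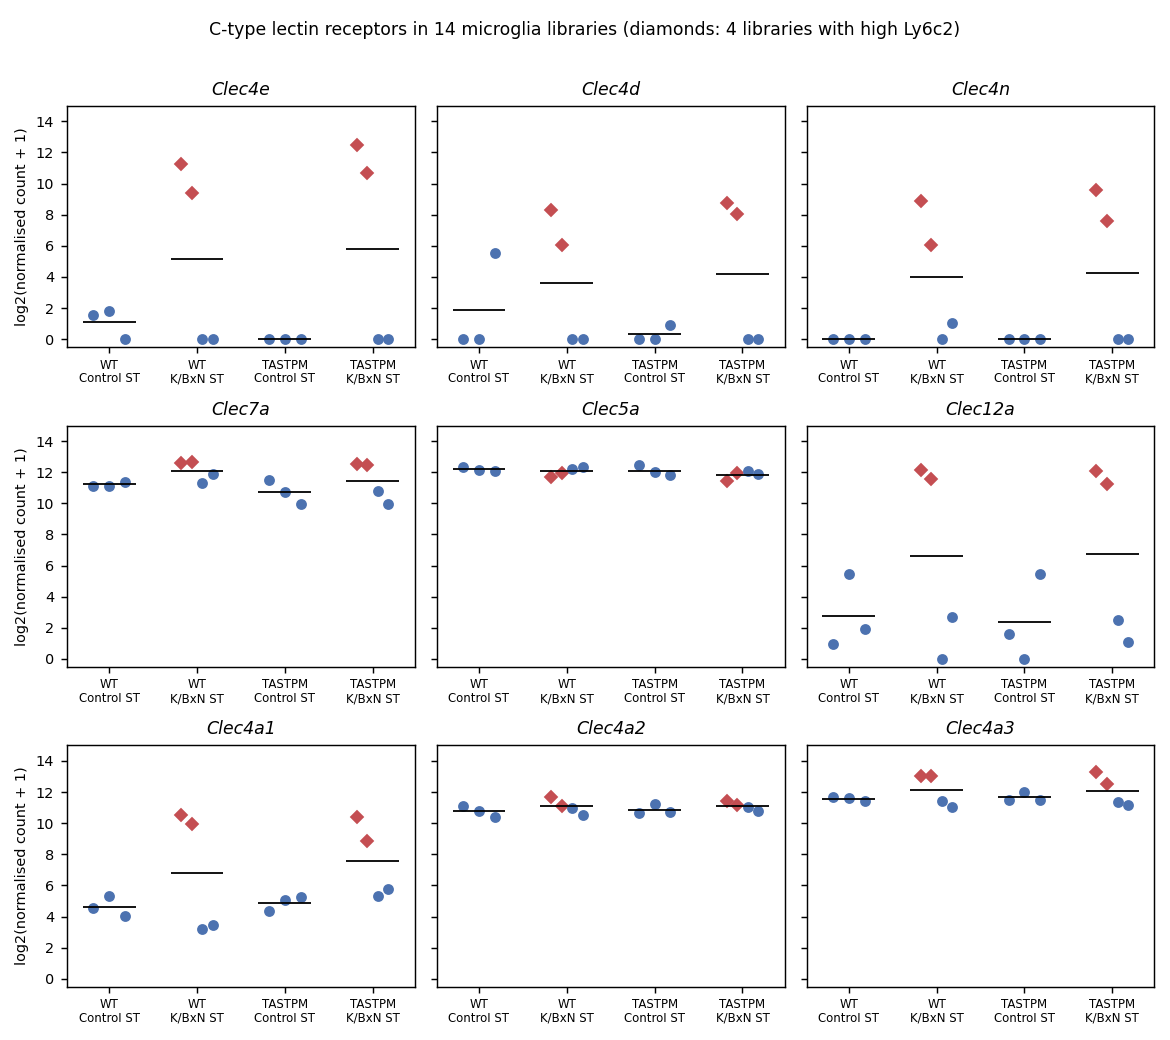
Normalised counts of the 9 receptors as log2(count + 1) in each of the 14 libraries by group, with the group mean as a line and the 4 libraries with high Ly6c2 as diamonds. For Clec4e, Clec4d, Clec4n, Clec12a, Clec4a1, Clec4a3 and Clec7a each diamond lies above each circle, and for Clec5a the diamonds lie low in the range.

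Clec4e encodes Mincle, an FcRγ-coupled receptor for mycobacterial glycolipids and for proteins of dying cells. In WT its normalised counts were 2432, 669, 0 and 0 after K/BxN serum against 1.87, 2.51 and 0 after control serum. In TASTPM they were 5677, 1664, 0 and 0 after K/BxN serum against 0, 0 and 0 after control serum. All 4 high values came from the libraries with high Ly6c2, the other 10 libraries held at most 3 reads, and K/BxN ST overlapped Control ST in both genotypes. The mean of TASTPM K/BxN ST was at least 599-fold higher than the 3-read floor per library of TASTPM Control ST, and it rested on 2 of 4 libraries. Without TASTPM K/BxN ST 1 this limit was 181-fold. The log2 fold change was 4.05 with an SE of 3.23 in WT (limma, adjusted p = 0.787) and 5.79 with an SE of 3.23 in TASTPM (limma, adjusted p = 0.964). Two-sided exact permutation tests gave p = 0.429 in both genotypes, where 4 against 3 libraries cannot go below 0.0286. Without the 4 libraries no fold was given, as both groups were at or under the floor.

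Clec4d, the gene of MCL, which pairs with Mincle on the cell surface, had 316, 65.5, 0 and 0 normalised counts after K/BxN serum against 0, 0 and 45.8 after control serum in WT. In TASTPM it had 425, 267, 0 and 0 under K/BxN serum and 0, 0 and 0.91 under control serum. The same 4 libraries were high, 1 WT Control ST library was not far under the lowest of them, and the groups overlapped. This was a log2 fold change of 1.74 with an SE of 2.57 in WT (limma, adjusted p = 0.880) and 3.89 with an SE of 2.57 in TASTPM (limma, adjusted p = 0.964). Exact permutation tests gave p = 0.657 in WT and 0.429 in TASTPM. The WT value was 0.17 without WT K/BxN ST 1 and 3.59 without WT Control ST 3. Leaving out the 4 libraries gave -1.85 with an SE of 2.07 in WT, a value set by WT Control ST 3 alone, the library with the high red cell markers, since the other 4 were at 0. In TASTPM no fold was given, as both groups were then at or under the floor.

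Clec4n encodes Dectin-2, an FcRγ-coupled receptor for mannose-rich fungal sugars. After K/BxN serum it had 459.8, 66.4, 0 and 1.09 normalised counts for WT against 752, 189, 0 and 0 for TASTPM, while all 6 Control ST libraries were at 0. Reads were thus almost limited to the 4 libraries, with 1 read in 1 other. Against the 3-read floor per library, the group mean was at least 48.3-fold higher in WT and at least 76.8-fold higher in TASTPM, again from 2 of 4 libraries. Leaving out WT K/BxN ST 1 lowered the first limit to 8.24-fold, and leaving out TASTPM K/BxN ST 1 lowered the second to 20.6-fold. It differed by a log2 fold change of 3.997 with an SE of 2.44 in WT (limma, adjusted p = 0.749) and 4.28 with an SE of 2.44 in TASTPM (limma, adjusted p = 0.964), and exact permutation tests gave p = 0.257 and 0.429. DESeq2 with the filter called Clec4n in both genotypes and Clec4e in TASTPM. It called 1.01% of genes in WT and 0.127% in TASTPM. Its log2 fold changes were 24.1 and 24.7 for Clec4n in WT and TASTPM and 27.7 for Clec4e in TASTPM. Each was set against control libraries with no reads and rested mainly on 2 of 4 libraries. These sizes are far above those of limma. Without the 4 libraries DESeq2 called 0 of the 9 in either genotype. The share of all genes in that fit is not given here, so nothing is read from that 0.

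Clec7a encodes Dectin-1, the β-glucan receptor, which recruits Syk through its own tail. In WT its normalised counts were 6061, 6512, 2544 and 3741 after K/BxN serum against 2231, 2242 and 2687 after control serum. Of the 4 K/BxN ST libraries 3 exceeded each control library and the other lay among them. In TASTPM the counts were 5995, 5656, 1762 and 1011 under K/BxN serum and 2884, 1694 and 977 under control serum, so the 2 libraries with high Ly6c2 were above and the other 2 within the control range. The log2 fold change was 0.89 with an SE of 0.56 in WT (limma, adjusted p = 0.758) and 0.73 with an SE of 0.56 in TASTPM (limma, adjusted p = 0.964). Exact permutation tests gave p = 0.0857 and 0.429. In the other 10 libraries the difference was 0.38 with an SE of 0.40 in WT and -0.33 with an SE of 0.40 in TASTPM.

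Clec5a encodes MDL-1, an activating receptor that signals through the adapters DAP12 and DAP10. In WT it had 3329, 4009, 4805 and 5091 normalised counts after K/BxN serum against 5214, 4482 and 4293 after control serum. In TASTPM there were 2715, 3886, 4329 and 3843 after K/BxN serum against 5748, 4169 and 3574 after control serum. Every pair of groups overlapped, and the lowest value of each genotype was in a library with high Ly6c2. Clec5a differed by a log2 fold change of -0.13 with an SE of 0.22 in WT (limma, adjusted p = 0.898) and -0.28 with an SE of 0.22 in TASTPM (limma, adjusted p = 0.964), with exact permutation p = 0.543 and 0.429. In the other 10 libraries it was 0.09 and -0.11, each with an SE of 0.21.

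Clec12a encodes MICL, an inhibitory myeloid receptor that binds uric acid crystals. WT libraries had 4472, 2985, 0 and 5.45 normalised counts after K/BxN serum against 0.94, 42.8 and 2.87 after control serum. TASTPM libraries had 4246, 2427, 4.70 and 1.13 after K/BxN serum against 2.09, 0 and 43.6 after control serum. The 4 libraries with high Ly6c2 were at 2427 or more and the other 10 at 43.6 or less, and the groups overlapped. On the log2 scale Clec12a differed by 3.80 with an SE of 3.15 in WT (limma, adjusted p = 0.791) and 4.36 with an SE of 3.15 in TASTPM (limma, adjusted p = 0.964), with exact permutation p = 0.371 and 0.314. In the other 10 libraries it was -1.44 and -0.57, each with an SE of 2.08. Each value rested mainly on 1 control library, at 42.8 in WT and 43.6 in TASTPM, with the rest at 5.45 or less.

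Clec4a2 encodes DCIR, an inhibitory receptor with an ITIM that recruits SHP-1 and SHP-2. Its normalised counts ranged from 1479 to 3275 after K/BxN serum against 1370 to 2218 after control serum for WT, with 1736 to 2767 against 1588 to 2380 for TASTPM, so all groups overlapped. The highest value of each genotype was in a K/BxN ST library with high Ly6c2. The log2 fold change was 0.30 in WT (limma, adjusted p = 0.806) and 0.24 in TASTPM (limma, adjusted p = 0.964), each with an SE of 0.27, and exact permutation tests gave p = 0.400 and 0.314. Leaving out the 4 libraries gave -0.03 and 0.04, each with an SE of 0.27.

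Clec4a1 and Clec4a3 are relatives of DCIR in the same gene cluster. For WT, Clec4a3 had 8418, 8434, 2722 and 2075 normalised counts after K/BxN serum against 3274, 3151 and 2685 after control serum. For TASTPM it had 9836, 5902, 2656 and 2303 after K/BxN serum against 2830, 4029 and 2904 after control serum. The 4 libraries with high Ly6c2 exceeded all others, and of the other 4 K/BxN ST libraries 3 were below each control library of their genotype. Clec4a3 thus differed by a log2 fold change of 0.56 in WT (limma, adjusted p = 0.807) and 0.43 in TASTPM (limma, adjusted p = 0.964), each with an SE of 0.53, with exact permutation p = 0.400 and 0.514. Leaving out the 4 libraries turned the sign in both genotypes, to -0.35 and -0.38, each with an SE of 0.22 (limma, adjusted p = 1.00 and 0.996).

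Clec4a1 had 1469, 1002, 8.36 and 9.81 normalised counts after K/BxN serum against 22.5, 39.4 and 15.3 after control serum in WT. In TASTPM it had 1319, 457, 38.8 and 53.0 under K/BxN serum and 19.8, 32.2 and 36.3 under control serum. In WT 2 libraries lay above and 2 below all controls. In TASTPM all 4 lay above all 3 controls, which was so for 1 of 9 receptors and 2.67% of the genes tested, whereas in WT it was 0 of 9 and 3.67%. The log2 fold change was 2.15 with an SE of 1.70 in WT (limma, adjusted p = 0.785) and 2.68 with an SE of 1.70 in TASTPM (limma, adjusted p = 0.964), with exact permutation p = 0.429 and 0.143. Leaving out the 4 libraries gave -1.31 in WT and 0.65 in TASTPM, each with an SE of 1.03.

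**Figure D3:**
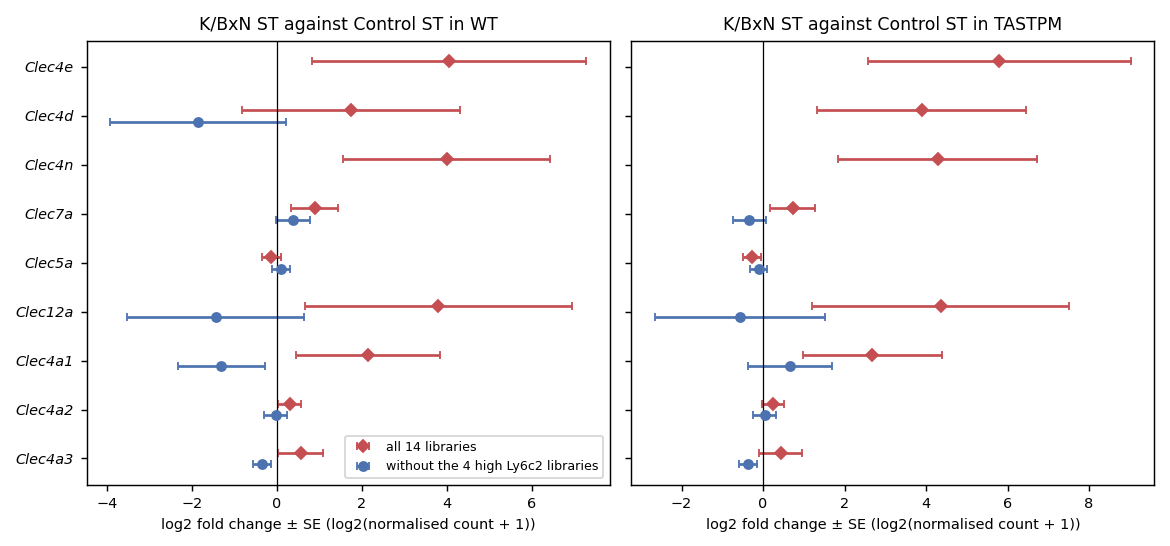
Log2 fold change of each receptor, K/BxN ST against Control ST, with its SE from limma, in WT on the left and TASTPM on the right, with all 14 libraries (diamonds) and without the 4 high Ly6c2 libraries (circles). Circles are left out where both groups were at or under 3 reads, and no receptor was called in either set.

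Across the receptors, 7 of 9 were higher in each of the 4 libraries than in each of the other 10, beside 8.56% of all genes. These libraries were singled out by Ly6c2 and not by the labels, so the count is a description of 14 libraries. Within the 4, the receptors did not share 1 order. Clec4e reached 100%, 29.3%, 42.8% and 11.8% of its highest level in TASTPM 1, TASTPM 2, WT 1 and WT 2, and Clec4n 100%, 25.2%, 61.2% and 8.84%. For Clec12a these were 94.9%, 54.3%, 100% and 66.7%, and for Clec4a1 89.8%, 31.1%, 100% and 68.2%. The ratio of Clec4e to Clec12a in normalised counts was 1.34, 0.69, 0.54 and 0.22. WT 2, lowest of the 4 for Clec4e, Clec4n and Clec4d, was also lowest for the neutrophil markers, at 4.51% of their highest sum. Its Mmp8 was still far above the other 10 libraries. WT 2 was lowest of the 4 for the monocyte markers too, at 52.5%, and for Ly6c2, at 44.3%. TASTPM 2 had neutrophil markers at 90.4% but Clec4e at 29.3%, Clec4n at 25.2% and Clec4d at 62.8%. The part of either marker set in these levels was not tested.

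**Figure D4:**
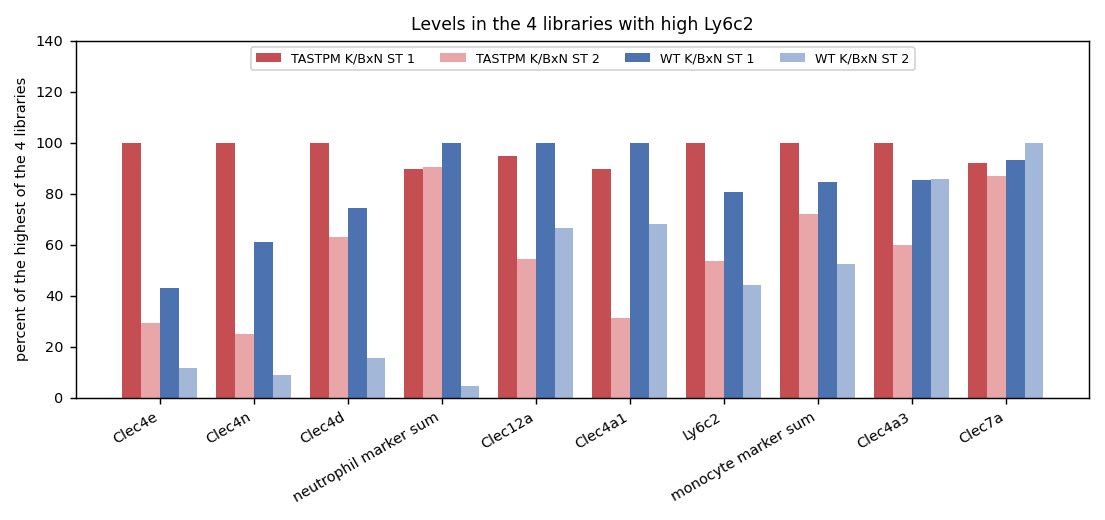
Level of 7 receptors, Ly6c2 and the summed monocyte and neutrophil markers in the 4 libraries with high Ly6c2, as a percentage of the highest of the 4, 1 bar per library. WT K/BxN ST 2 is at 8.84% to 15.4% for Clec4n, Clec4e and Clec4d and at 66.7% or more for Clec12a, Clec4a1, Clec4a3 and Clec7a.

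Between the genotypes no receptor was called under either serum, and none for the interaction of genotype and serum (limma). The shares of all genes called were 0.0% in each of these 3 comparisons, and at an unadjusted p below 0.05 0 of 9 receptors were found, beside 5.57% of all genes under control serum, 1.91% under K/BxN serum and 3.04% for the interaction. Clec7a had the largest genotype difference among the 4 well-expressed receptors. Under K/BxN serum it was lower in TASTPM than in WT by a log2 difference of -0.66 with an SE of 0.52 (limma, adjusted p = 1.00), with 1011 and 1762 below all 4 WT libraries, and the exact permutation test gave p = 0.371. Under control serum it was -0.50 with an SE of 0.59 (limma, adjusted p = 0.978). The exact permutation test gave p = 0.400 there, where 3 against 3 libraries cannot go below 0.100. Sex was unevenly spread over these groups, as given above. Without the 4 libraries, leaving 2 against 2, the K/BxN difference was -1.21 with an SE of 0.44 (limma, adjusted p = 1.00). With single libraries left out, the value of -0.66 moved to -0.17 without TASTPM K/BxN ST 4 and -1.03 without TASTPM K/BxN ST 1, and that of -0.50 to -0.10 without TASTPM Control ST 3 and -0.89 without TASTPM Control ST 1. In the fit without all 4, Clec7a was the 1 receptor of 9 at an unadjusted p below 0.05 under K/BxN serum, beside 3.95% of all genes, and the comparison set WT libraries with high Xist against TASTPM 3, with Ddx3y, and TASTPM 4, with 3980 of Xist. No receptor was called in any of the 5 comparisons without the 4 libraries. The share of all genes called in that fit is not given here. Nothing is therefore read from this 0, or from that of the gene lists below. For Clec4n and Clec4e under control serum no difference was given, as both genotypes were at or under the floor. DESeq2 called Clec4e there, on 2 and 3 reads in WT against none in TASTPM, while it called 0.325% of genes with the filter and 0.589% without.

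Fcer1g and Tyrobp were abundant in every library. Fcer1g, the FcRγ chain used by Mincle, MCL and Dectin-2, ranged from 20800 to 33428 normalised counts over the 14 libraries, and Tyrobp, the gene of DAP12, from 18089 to 36720. Their log2 fold changes in WT were -0.01 with an SE of 0.23 and 0.09 with an SE of 0.26. Syk, from 1578 to 3123, differed by 0.25 in WT and 0.13 in TASTPM, each with an SE of 0.24. Hcst, the gene of DAP10, had 346 to 488 normalised counts in the 4 libraries with high Ly6c2 and 135 to 293 in the others. Of the 27 genes, Hcst, Vav3 and Ptpn11 were higher in each of the 4 than in each of the 10, beside 8.56% of all genes, and Nfatc2 and Inpp5d were lower, beside 2.22%. Inpp5d, the gene of the phosphatase SHIP-1, had 5780 to 7345 against 8957 to 14893, and Nfatc2, a transcription factor, 371 to 513 against 515 to 1282. Card9, which joins Syk to NF-κB, ranged widely, from 37.2 to 613, and in TASTPM its log2 fold change was -1.46 with an SE of 0.63 (limma, adjusted p = 0.964).

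Of 27 adapter and signalling genes 26 passed the filter and 0 were called by limma in any of the 5 comparisons. The median log2 fold change of the 26 was 0.06 in WT and 0.04 in TASTPM, beside 0.06 and 0.01 over all genes. Without the 4 libraries these were -0.045 and 0.16, with 0 called. The smallest unadjusted p in WT were for Ikbkb, a kinase of NF-κB, at 1.11 with an SE of 0.46 (limma, adjusted p = 0.684), Ptpn11, the gene of SHP-2, at 1.03 with an SE of 0.50 (limma, adjusted p = 0.699), with 576 to 724 normalised counts in the 4 libraries and at most 573 in the others, and Vav1, an exchange factor under Syk, at -0.34 with an SE of 0.20 (limma, adjusted p = 0.734). In TASTPM they were for Rel, an NF-κB subunit, at -0.73 with an SE of 0.24, Card9, and Ptpn6, the gene of SHP-1, at 0.38 with an SE of 0.23 (limma, adjusted p = 0.964 for each). Vav3, the gene that failed the filter, had 137 to 630.2 normalised counts in the 4 libraries and 0 in 9 of the other 10, and DESeq2 without a filter called it in WT.

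Of 21 other C-type lectins in the data 9 passed the filter and 0 were called by limma, with or without the 4 libraries. The median log2 fold change of the 9 was 0.30 in WT and 0.26 in TASTPM with all libraries, and 0.31 and -0.15 without the 4. Among the 21, 7 genes, Clec4b1, Clec9a, Clec10a, Mgl2, Cd209a, Klrb1f and Klrk1, were higher in each of the 4 libraries than in each of the other 10, beside the 8.56% of all genes. Cd209a, a DC-SIGN relative, had 6678, 440.4, 3844 and 1031 normalised counts in TASTPM 1, TASTPM 2, WT 1 and WT 2 and at most 2.18 elsewhere, and Clec4b1, in the same gene cluster as Clec4n, had 503, 70.4, 479.6 and 177 and at most 2.18. The smallest unadjusted p were for Olr1, Cd69 and Clec1a in WT and Klrb1b, Mrc2 and Olr1 in TASTPM. Olr1, a receptor for oxidised lipoprotein, differed by 2.75 with an SE of 1.43 in WT (limma, adjusted p = 0.712) and by 1.46 with an SE of 1.43 in TASTPM (limma, adjusted p = 0.964). DESeq2 without a filter, which called 1.93% of all genes in WT and 0.617% in TASTPM, called Clec10a, Ly75, Klrb1f, Clec2i, Cd209a, Cd209d and Mgl2 in WT and Ly75, Clec4b1, Cd209a, Cd209d and Mgl2 in TASTPM. It also called Clec10a for the interaction (DESeq2, adjusted p = 0.0259), where it called 0.252% of all genes, and Clec10a, Clec4b1 and Klrb1f between the genotypes under control serum. Under that serum Clec10a had 40.7, 0 and 0.91 normalised counts in TASTPM and 0 in all 3 WT libraries, and Clec4b1 and Klrb1f had 1 read in 1 library. Mrc1, the mannose receptor, was called with the filter between the genotypes under K/BxN serum without the 4 libraries (DESeq2, adjusted p = 0.0134), beside 0.2% of all genes. It had 599 and 57.5 in TASTPM 3 and 4 and 0 and 1.09 in WT 3 and 4, and limma did not call it there (adjusted p = 1.00).

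The genes most like each receptor over the 14 libraries, by the root mean square difference of centred log2 values, are given here as a description. Nearest to Clec4n were Emb, at 0.83, and Anxa2, at 0.95, and nearest to Clec4e were Emb, at 1.19, and Chil3, at 1.20. For Clec4d they were Anxa2 and S100a11, at 1.41 and 1.45, for Clec12a Lgals3 and Emb, at 1.73 and 1.75, and for Clec4a1 Lyz2 and Cd74, at 0.66 and 0.71. Emb and Lyz2 were themselves high in the 4 libraries, with 4982 to 14124 and 258065 to 536223 normalised counts, against at most 21.1 and 22933 in the others. Clec5a lay nearest to Lat2, at 0.11, an adapter of myeloid cells, and Oxct1, at 0.12, Clec7a to Ugdh and Adap1, at 0.34 and 0.38, Clec4a2 to Psmb2 and Rps4x, at 0.17 and 0.18, and Clec4a3 to Rps16 and Smdt1, at 0.18 and 0.20. Of the 15 genes named here 12, all but Lat2, Oxct1 and Rps4x, were higher in each of the 4 libraries than in each of the others, beside 8.56% of all genes. The genes were chosen for likeness to receptors that mostly separate these libraries, so nothing is read from that count. Examples were Rps16 with 1574 to 2223 against 602 to 980.3 and Ugdh with 712 to 972 against 146 to 619.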

How the data were processed

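Bulk RNA-seq of 14 libraries was analysed. Per the labels and the study's methods, the authors aligned with HISAT2 2.1 to GRCm39, counted with featureCounts 1.5.2 (Ensembl release 104) and deposited a signal, the count of a gene divided by 1 DESeq2 factor per library. Whole reads were recovered for 100% of values, within 0.01 of a read, and the scaling had r = 0.999 with recomputed size factors. Libraries of TASTPM K/BxN ST carry label numbers, and other groups are in the order of the deposited values.

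The 12645 genes reaching 10 reads in 7 or more libraries were tested with limma 3.58.1 (R 4.3.3; trend, log2 of normalised count plus 1, 1 fit to 4 groups, Benjamini-Hochberg). Receptors failing the filter were kept in a fit with these genes. Exact permutation tests were two-sided. edgeR 4.0.16 and DESeq2 1.42.0 on recovered reads were alternatives. The fits were tested on simulated data. Members and gene lists were chosen with earlier results of these data known. Named were the receptors, 5 adapters, the 3 listed genes of smallest p per list and serum comparison, genes called, the 2 most alike genes per receptor, and markers. Clec4b1, Hcst and Cd209a ranges, Xist, Ddx3y, Ly6g and Vav3 were singled out after their values were seen. Intervals were not computed, and floors cover counting error only. Positions and sequences are from GRCm39 with GENCODE vM39.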

Additional observations from a re-analysis of the deposited data

Results flagged for a closer look

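In WT K/BxN ST, Clec4n had 459.8 normalised counts in library 1, far from 66.4, 1.09 and 0 in the other 3. Of 18 groups of 4 libraries checked over the 9 receptors it was the single one where the extreme library's gap to the next exceeded Dixon's 95% critical value, and chance flags about 1 in 20.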

How the results depend on the processing

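No paired analysis was possible because the groups share no replicate numbers. Under the alternatives tried (normalisation, pseudocount, filter, groups fitted, variance model, edgeR, DESeq2, a marker score as covariate, leaving out each library and, chosen after seeing the data, leaving out the 4 libraries with high Ly6c2), limma and edgeR called 0 receptors and 0 adapter or signalling genes in all 5 comparisons. DESeq2, with or without the filter, called 1 receptor in WT (Clec4n), 2 in TASTPM (Clec4n, Clec4e) and 1 between the genotypes under control serum (Clec4e, at or under 3 reads in each library), and without a filter it called 1 signalling gene (Vav3) in WT and 1 between the genotypes under control serum. DESeq2 without the 4 libraries called 0 of either list. Shares of all genes in that fit are not given here for the serum comparisons, so nothing is read from these counts. Clec4n, Clec4e, Clec4d and Clec12a each had fewer than 10 reads in most libraries.

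Of 1313 refitted log2 fold changes of single receptors 107 changed sign, and the cause was not tested. Some grew without a change of sign. The largest serum differences over the alternatives were 24.1 for Clec4n and 9.06 for Clec4e in WT. In TASTPM they were 24.7 for Clec4n, 27.7 for Clec4e and 9.14 for Clec4d. The marker score used as covariate, once centred, was 2.89 to 7.30 in the 4 libraries with high Ly6c2 and at most -1.27 in the others. It thus separates the same libraries, all of them K/BxN ST. The loss of serum differences under this covariate was therefore largely set by its choice. Log2 fold changes that changed sign are given first. With the mean log2 level of the monocyte and neutrophil marker genes as covariate, the log2 fold changes in WT became -0.34 for Clec4a1, -0.22 for Clec4a3, -2.19 for Clec4d, -1.14 for Clec4e, 0.077 for Clec5a and -0.90 for Clec12a, in TASTPM -0.033 for Clec4a1, -0.047 for Clec4a2, -0.42 for Clec4a3, -0.39 for Clec4d, -0.086 for Clec7a and -0.78 for Clec12a, and for the interaction -0.060 for Clec4n. With this covariate the serum differences that kept their sign also became smaller, in WT 0.15 for Clec4n, 0.033 for Clec4a2 and 0.14 for Clec7a, and in TASTPM 0.095 for Clec4n, 0.14 for Clec4e and -0.053 for Clec5a. For TASTPM against WT under K/BxN serum they became -0.43 for Clec4n, -0.026 for Clec4a2, -0.12 for Clec4d, -0.33 for Clec4e and -0.74 for Clec12a. Without the 4 libraries they became -1.31 for Clec4a1, -0.025 for Clec4a2, -0.35 for Clec4a3, -1.85 for Clec4d, 0.090 for Clec5a and -1.44 for Clec12a in WT, -0.38 for Clec4a3, -0.33 for Clec7a and -0.57 for Clec12a in TASTPM, 0.061 for Clec4a2 in the interaction and 0.057 for Clec4a3 between the genotypes under K/BxN serum. With edgeR the interaction was -0.62 for Clec4a1 and -0.17 for Clec12a, and the genotype difference under K/BxN serum -0.43 for Clec4a1, -0.026 for Clec4a2 and -0.17 for Clec12a. With DESeq2, filtered or not, these were -0.61, -0.13, -0.42, -0.021 and -0.17. With a pseudocount of 5, Clec12a between the genotypes under K/BxN serum was -0.047.

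Leaving out 1 library at a time, the serum difference in WT ran from 2.38 to 5.33 for Clec4n, 0.91 to 3.34 for Clec4a1, 0.096 to 0.48 for Clec4a2, 0.26 to 0.93 for Clec4a3, 0.17 to 3.59 for Clec4d, 2.02 to 5.77 for Clec4e, -0.22 to -0.011 for Clec5a, 0.70 to 1.15 for Clec7a and 1.96 to 6.002 for Clec12a. In TASTPM it ran from 2.52 to 5.71 for Clec4n, 1.75 to 3.43 for Clec4a1, 0.13 to 0.42 for Clec4a2, 0.042 to 0.74 for Clec4a3, 2.38 to 5.29 for Clec4d, 3.57 to 7.72 for Clec4e, -0.43 to -0.085 for Clec5a, 0.33 to 1.21 for Clec7a and 2.58 to 6.23 for Clec12a. The lowest value of each receptor except Clec5a came in WT without library 1 or 2 of K/BxN ST. In TASTPM, Clec7a aside as well, it came without library 1 of K/BxN ST. For Clec4d the interaction of 2.15 ran from 0.30 without WT Control ST 3 to 3.72 without WT K/BxN ST 1. The genotype difference of Clec4d under control serum ran from -2.46 to -1.38, and that of Clec5a under K/BxN serum from -0.34 to -0.083. The interaction ran from -1.47 to 1.90 for Clec4n, -0.65 to 1.78 for Clec4a1, -0.24 to 0.15 for Clec4a2, -0.52 to 0.18 for Clec4a3, -0.48 to 3.78 for Clec4e, -0.30 to 0.044 for Clec5a, -0.55 to 0.33 for Clec7a and -1.65 to 2.43 for Clec12a. Under control serum the genotype difference ran from -0.059 to 0.60 for Clec4a1, -0.10 to 0.25 for Clec4a2, -0.078 to 0.18 for Clec4a3, -0.27 to 0.075 for Clec5a, -0.89 to -0.10 for Clec7a and -1.97 to 0.92 for Clec12a. Under K/BxN serum it ran from -1.47 to 1.90 for Clec4n, -0.41 to 2.02 for Clec4a1, -0.16 to 0.23 for Clec4a2, -0.44 to 0.26 for Clec4a3, -0.90 to 2.18 for Clec4d, -1.59 to 2.66 for Clec4e, -1.03 to -0.17 for Clec7a and -2.06 to 2.01 for Clec12a.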
